A study of Homo sapiens with 2 samples.

Results

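Immune checkpoint ligands are proteins of a tumour cell, most on its surface, that bind receptors of immune cells. Many of these receptors, on T cells, natural killer cells or macrophages, are inhibitory. 10 such genes were followed by name in the RNA-seq data of PLC-8024, a human hepatocellular carcinoma (HCC) cell line: CD274, PDCD1LG2, CD276, VTCN1, CD47, PVR, LGALS9, TNFRSF14, CEACAM1 and HHLA2. Each of the 10 symbols was found once among the 58174 genes of the deposited tables, and 6 of the 10 reached at least 1 TPM in either library. The series held 1 library of PLC-8024-CTR cells, which carried a control vector, and 1 library of PLC-8024-GDF1 cells, which overexpressed GDF1, a secreted ligand of the TGF-β superfamily. Both were stable lines made by lentiviral transduction and puromycin selection, and whether each was 1 clone or a pool is not given in the sources used here. They are called control cells and GDF1 cells from here on. The values are TPM, a transcript abundance scaled by transcript length and by the library total, so levels can be set side by side between genes. With 1 library per condition no difference had a replicate check, no test was made, and "rose" and "fell" mark only a change past 2-fold between these libraries.

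These ligands form several families that act on different immune cells. CD274 (PD-L1) and PDCD1LG2 (PD-L2) bind PD-1 on activated T cells, and antibodies against this pair are used in HCC. CD276 (B7-H3), VTCN1 (B7-H4) and HHLA2 (B7-H7) are further B7 family members, PVR (CD155) binds TIGIT, CD96 and the activating receptor CD226, and TNFRSF14 (HVEM) binds BTLA and CD160. CD47 gives macrophages a "do not eat me" signal through SIRPA, LGALS9 encodes galectin-9, which binds TIM-3, and CEACAM1 binds itself and TIM-3. PD-L1 is best known for its induction by interferon gamma through JAK kinases and IRF1.

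To show sequence before a listed start of the ligands that rose and of CD274, the 250 bases before the RefSeq start of 4 genes were read from the RefSeq promoter table (GRCh38.p14). Of the 10 ligands 9 matched that table, with 12 starts in all, and PDCD1LG2 did not. Capitals mark matches, on either strand, to the SMAD box CAGAC, the gamma-activated site TTCNNNGAA or the interferon response pair (GAAA, any 2 bases, GAAA). The sequences of CD47 (minus strand, chr3:107809879-107810128), TNFRSF14 (plus strand, chr1:2487560-2487809) and CD274 (plus strand, chr9:5450292-5450541) were found once each, letter for letter, in GRCh37. The PVR sequence had no exact match there and is given without a position. These RefSeq starts differ from the outer gene ends of the GENCODE annotation used for the positions below. The CD47 and TNFRSF14 windows lie wholly inside the annotated genes, which begin at 107810709 (minus strand) and 2487078 (plus strand). The CD274 window runs past the annotated gene start at 5450503.
CD47: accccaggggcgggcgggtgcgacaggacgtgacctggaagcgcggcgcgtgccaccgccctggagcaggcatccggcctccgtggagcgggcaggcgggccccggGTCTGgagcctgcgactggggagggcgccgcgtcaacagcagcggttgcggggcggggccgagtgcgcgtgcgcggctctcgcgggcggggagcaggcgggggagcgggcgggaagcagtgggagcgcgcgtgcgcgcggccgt
PVR: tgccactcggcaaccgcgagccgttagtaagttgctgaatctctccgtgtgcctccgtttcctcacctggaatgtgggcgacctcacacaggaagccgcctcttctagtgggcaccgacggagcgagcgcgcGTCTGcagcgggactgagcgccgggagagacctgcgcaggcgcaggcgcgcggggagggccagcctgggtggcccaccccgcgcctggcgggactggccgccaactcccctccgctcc
TNFRSF14: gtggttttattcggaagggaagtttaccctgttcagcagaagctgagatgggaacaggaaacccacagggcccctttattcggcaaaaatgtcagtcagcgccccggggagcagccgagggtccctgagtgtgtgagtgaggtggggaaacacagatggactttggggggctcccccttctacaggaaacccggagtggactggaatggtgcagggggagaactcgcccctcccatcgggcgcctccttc
CD274: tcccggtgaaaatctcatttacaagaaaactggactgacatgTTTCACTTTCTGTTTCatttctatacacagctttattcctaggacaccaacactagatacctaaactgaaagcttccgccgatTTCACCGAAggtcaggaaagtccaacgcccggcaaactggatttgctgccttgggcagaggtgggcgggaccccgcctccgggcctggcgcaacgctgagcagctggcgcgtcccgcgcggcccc

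CD47 and PVR each held 1 SMAD box in this window and TNFRSF14 held no match to any of the motifs. A SMAD box of these 5 letters occurred in 38.0% of the 35116 windows of the table and in 5 of the 12 windows of the ligands, namely those of CD47, PVR and CEACAM1 and 2 of the 3 windows of HHLA2. CD274 held 2 overlapping interferon response pairs, a motif found in 3.02% of all windows, and 1 gamma-activated site, found in 6.57%. CEACAM1 held the other interferon response pair among the ligands. The palindromic SMAD element GTCTAGAC was found in no ligand window and in 0.182% of all windows. A match describes letters only, and binding was not measured. The windows of CD276, CEACAM1 and LGALS9, like those of CD47 and TNFRSF14, lie inside the annotated genes. Sequence before the outer annotated start of these genes was not searched, so a missing match holds for the window only.

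The overexpressed gene, GDF1, was listed at 2.096 TPM in control cells and 4.64 TPM in GDF1 cells, while CERS1, whose exons contain the GDF1 coding sequence, was listed at 13.3 and 9612 TPM, and reads of these genes cannot be told apart. TPM totals are the same by construction (999990 and 999995), so they carry no sequencing depth, and no interval is given. Of the liver markers, SERPINA1 was the highest, at 5308 and 2915 TPM, and all 11 listed hepatocyte and liver cancer markers reached 1 TPM in either library. Of these, 5 fell past 2-fold, namely ALB, AFP, TTR, APOA1 and HNF4A (3 of them when TPM were rescaled to a common median), and none rose. Among all genes at 1 TPM or more in either library, 9.61% fell and 4.82% rose. Of 13 immune cell markers 2 reached 1 TPM, LYZ (298.0 and 213.5 TPM) and CD68 (33.1 and 13.2 TPM), of whose exon bases 81.6% are shared with the non-coding gene ENSG00000264772. PTPRC, CD3D and MS4A1, which define leukocytes, T cells and B cells, were at 0.0001 TPM in both. Another 4, CD3E, CD4, CD79A and NKG7, were at 0.0001 TPM in control cells. In GDF1 cells they were at 0.024, 0.13, 0.36 and 0.18 TPM. CD163 went the other way, from 0.11 to 0.0001 TPM. In all, 7 of the 13 were at 0.0001 TPM in control cells and 4 in GDF1 cells. CD8A (0.077 and 0.021 TPM), ITGAM (0.49 and 0.22 TPM) and CD14 (0.50 and 0.52 TPM) were under 1 TPM in both. The summed level of the immune list was 332.2 TPM in control cells and 228.2 TPM in GDF1 cells. Of 5 endothelial and 7 fibroblast markers, PECAM1 (23.2 and 22.2 TPM) and COL3A1 (3.22 and 1.23 TPM) reached 1 TPM. COL1A1 was listed at 0.20 and 0.84 TPM, PDGFRB at 0.37 and 0.51 TPM, and LUM at 0.0001 and 0.022 TPM, while VWF, KDR, TEK, COL1A2, DCN and ACTA2 were at 0.0001 TPM in both.

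CD47, TNFRSF14 and PVR, 3 of the 6 expressed ligands, rose past 2-fold in GDF1 cells, and none fell. LGALS9, 1 of the 6, reached 1 TPM in GDF1 cells only, so it entered through the library where it was higher. Of the 14929 genes that reached 1 TPM in one library or both, 4.82% rose and 9.61% fell past 2-fold. The median log2 change of the 6 was 0.71, against -0.20 over the 14929 genes. With no filter on low values it was 0.19 over all 10 ligands, against 0 over the 58174 genes. Each change is the difference of log2(TPM + 1), GDF1 cells minus control cells, a scale that makes the change of low genes smaller. Since the typical expressed gene was lower in GDF1 cells, each change is also given relative to that median. With TPM rescaled to set the shift of genes at 5 TPM or more to 0, 1062 genes rose and 1022 fell instead of 720 and 1434, and with the GC trend removed 921 rose and 886 fell. Under the rescaling the ligands past 2-fold were again CD47, TNFRSF14 and PVR, whereas TNFRSF14 was at 0.93 with the GC trend removed, and PVR was at 0.60 or 0.21 when overlapping genes were added to it. Among the 8193 genes whose mean TPM lay within the range of the 6 ligands, from 1.25 to 16.0 TPM, 5.03% rose and 11.6% fell. Summed over all 10 ligands, the level was 40.9 TPM in control cells and 63.0 TPM in GDF1 cells, a 1.54-fold ratio.

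**Figure D1:**
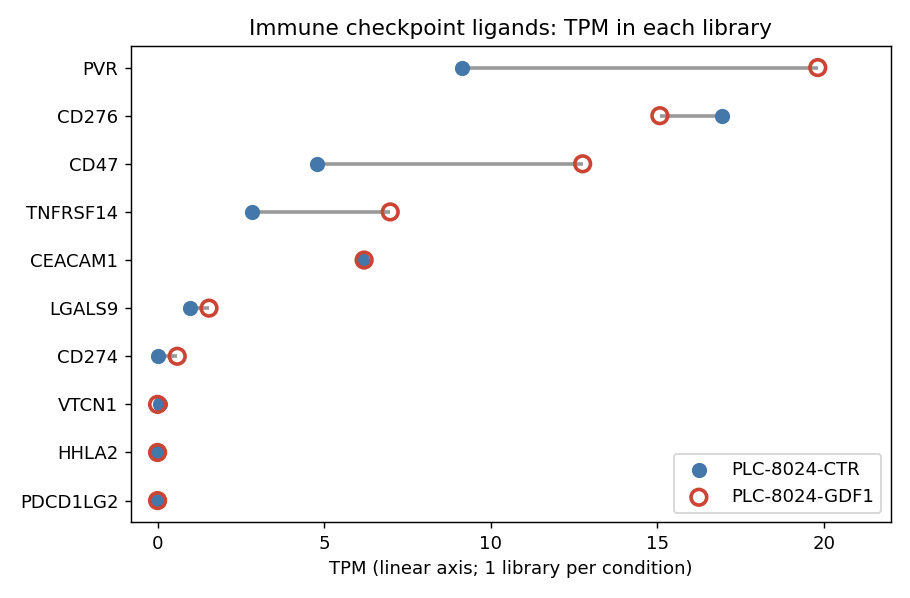
TPM (linear axis) of the 10 checkpoint ligands in PLC-8024-CTR (filled blue points) and PLC-8024-GDF1 (open red circles), 1 library each, joined by a grey line. PVR, CD47 and TNFRSF14 lie clearly to the right in PLC-8024-GDF1, CD276 lies slightly to the left (to the right with rescaled TPM), CEACAM1 coincides, and CD274, VTCN1, HHLA2 and PDCD1LG2 stay under 1 TPM.

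CD47, the ligand of the macrophage receptor SIRPA, had the largest change of the 6. It was listed at 4.78 TPM in control cells and 12.8 TPM in GDF1 cells, a plain ratio of 2.67 and a log2 change of 1.25, or 1.45 relative to the median gene. It thereby moved from a level above 37.9% of expressed genes to one above 62.8%, and its log2 change was larger than that of 97.2% of them. CD47 (ENSG00000196776) lies on the minus strand of GRCh37 chromosome 3 from 107761938 to 107810709. No annotated gene overlapped it, and its nearest protein-coding neighbour with at least 1 TPM, IFT57, changed from 6.95 to 5.73 TPM. None of the 6697 windows of 100 bases in its longest transcript occurred in the longest transcript of another gene. The GC content of that transcript was 38.4%, and genes of that GC content changed by -0.43 on the fitted trend, so with the trend removed the CD47 value was 1.69.

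CD47 needs a modified N-terminus to bind SIRPA, and QPCTL encodes the enzyme that makes this modification. QPCTL was listed at 47.1 TPM in control cells and 32.5 TPM in GDF1 cells, within 2-fold. The receptor gene SIRPA was itself listed in these tumour cells, at 10.03 and 10.3 TPM. THBS1, encoding the soluble CD47 ligand thrombospondin, was under 1 TPM in both libraries. Of the 4 genes listed as regulators or partners of CD47, 2 reached 1 TPM and neither passed 2-fold. Their median log2 change was -0.61, against -0.20 over all expressed genes, of which 4.82% rose and 9.61% fell.

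TNFRSF14, a TNF receptor family protein that engages the lymphocyte receptor BTLA, was listed at 2.83 TPM in control cells and 6.98 TPM in GDF1 cells. The plain ratio was 2.46 and the log2 change 1.06, or 1.26 relative to the median gene, so the value lay just past 2-fold. With the GC trend removed it was 0.93 and no longer past 2-fold, since its transcript has a GC content of 64.0%, where the trend is 0.13. TNFRSF14 (ENSG00000157873) lies on the plus strand of GRCh37 chromosome 1 from 2487078 to 2496821. The antisense gene TNFRSF14-AS1 shares 826 exon bases with it and was listed at 0.067 and 0.39 TPM. The next protein-coding gene, PRXL2B, 21.1 kb away, also rose, from 3.39 to 13.9 TPM. TNFSF14, encoding the TNF family cytokine LIGHT that binds HVEM, was listed at 0.44 and 1.24 TPM.

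PVR, a nectin-like adhesion molecule seen by TIGIT and CD226, was listed at 9.12 TPM in control cells and 19.8 TPM in GDF1 cells. The plain ratio was 2.17 and the log2 change 1.04, or 1.24 relative to the median gene. It was the second most abundant of the 10 ligands in control cells and the most abundant in GDF1 cells, where it gave 31.5% of their summed TPM against 22.3% in control cells. NECTIN2, the related ligand that shares TIGIT and CD226 family receptors, was listed higher, at 114.2 and 107.6 TPM, within 2-fold.

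PVR (ENSG00000073008) lies on the plus strand of GRCh37 chromosome 19 from 45147098 to 45169430. ENSG00000279095, a gene of unproven status, lies wholly inside PVR exons on the same strand (2029 bases, 19.5% of the PVR exon bases) and was listed at 8.16 and 6.91 TPM. CEACAM19, on the same strand, shares 121 exon bases with PVR and was listed at 11.5 and 6.65 TPM. Added up with ENSG00000279095, PVR was at 17.3 and 26.7 TPM (log2 change 0.60, an alternative chosen after the values were seen). Added up with both genes it was at 28.8 and 33.4 TPM (log2 change 0.21). Neither sum passed 2-fold. These are sums of whole-gene TPM and do not reassign reads, and how reads were divided between these genes was not tested. CEACAM16-AS1, on the opposite strand and with no shared exon base, rose from 4.66 to 14.0 TPM.

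**Figure D2:**
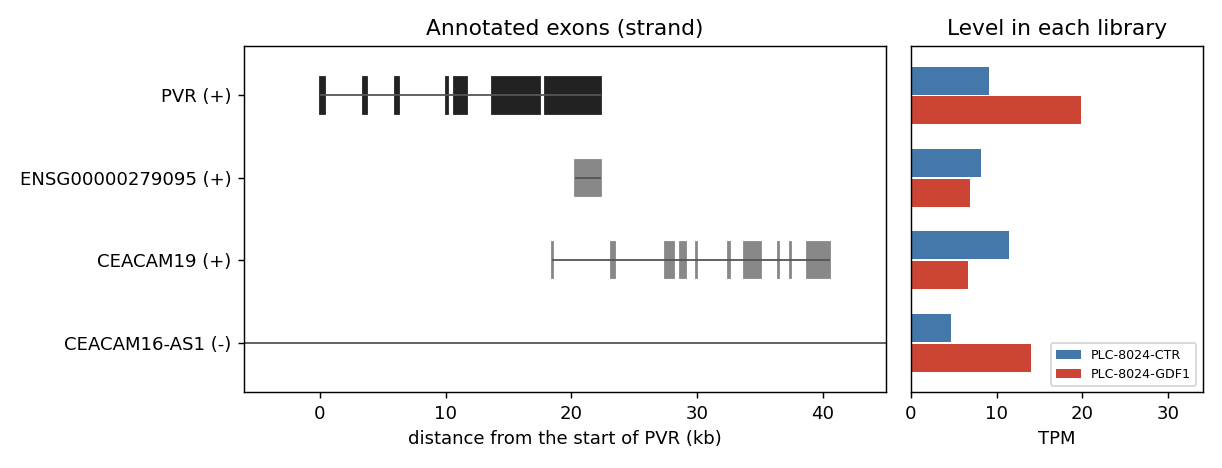
Left, annotated exons (boxes) of PVR and of the genes that overlap it, by distance in kb from the start of PVR, with the strand in brackets (lines are introns; CEACAM16-AS1 has no exon in this window and runs past both edges). Right, TPM of each gene in PLC-8024-CTR (blue bars) and PLC-8024-GDF1 (red bars), 1 library each. PVR and CEACAM16-AS1 are higher in PLC-8024-GDF1, while ENSG00000279095, inside the last PVR exon, and CEACAM19 are lower.

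CD276, a B7 family protein found on many carcinomas, was the most abundant ligand in control cells, at 17.0 TPM, and was listed at 15.1 TPM in GDF1 cells. The log2 change was -0.16, and with rescaled TPM it was 0.036, so its direction depended on the scaling. Its share of the summed ligand TPM was 41.5% in control cells and 23.9% in GDF1 cells. CD276 (ENSG00000103855) lies on the plus strand of GRCh37 chromosome 15 from 73976307 to 74006855 and overlaps no annotated gene. Its neighbour NPTN fell from 27.4 to 11.3 TPM.

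CEACAM1, a cell adhesion molecule of hepatocytes and lymphocytes, was listed at 6.15 TPM in control cells and 6.20 TPM in GDF1 cells, a log2 change of 0.010. Relative to the median gene the change was 0.21. CEACAM1 (ENSG00000079385) lies on the minus strand of GRCh37 chromosome 19 from 43011456 to 43065386. The antisense gene LIPE-AS1, which spans it and shares 185 of its exon bases, rose from 10.8 to 37.03 TPM. Whether reads were counted by strand is not given in the sources used here, so reads from these shared bases cannot be assigned to one of the genes.

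LGALS9, encoding galectin-9, was listed at 0.96 TPM in control cells and 1.54 TPM in GDF1 cells, a log2 change of 0.38. Its near-copies LGALS9B and LGALS9C were at or under 0.085 TPM, and with them added up the log2 change was 0.31. In the longest LGALS9 transcript 11.2% of 100-base windows also occurred in ENSG00000266728 or LGALS9DP, both listed at 0.0001 TPM. LGALS9 (ENSG00000168961) lies on the plus strand of GRCh37 chromosome 17 from 25956824 to 25976586. Its neighbour KSR1 was listed at 4.06 and 2.26 TPM.

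**Figure D3:**
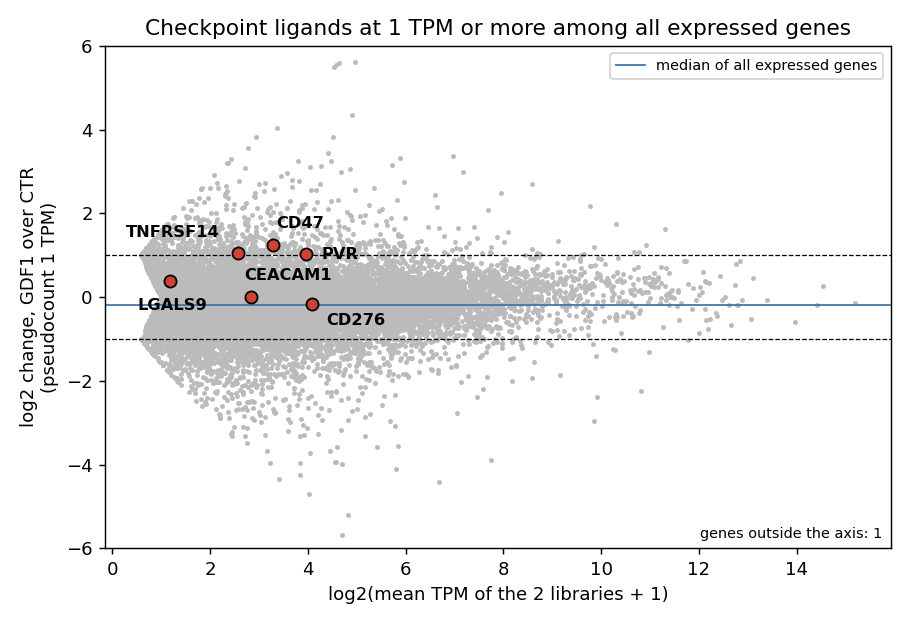
Log2 change, GDF1 minus control cells (pseudocount of 1 TPM), against log2(mean TPM + 1) for the 14929 expressed genes (grey; CERS1 lies outside the axis), with the 6 expressed checkpoint ligands in red. The dashed lines mark 2-fold and the blue line the median of all genes at -0.20. CD47, TNFRSF14 and PVR lie just above the upper dashed line, amid other genes of the same level.

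The 4 remaining ligands stayed under 1 TPM in both libraries. CD274, the PD-L1 gene, was listed at 0.016 TPM in control cells and 0.59 TPM in GDF1 cells, a difference of 0.57 TPM. The log2 change was 0.65 with a pseudocount of 1 TPM and 2.58 with a pseudocount of 0.1, while the plain ratio was 37.4. The size of this change is therefore set by the pseudocount, and no read counts were used here that would give its counting error. VTCN1 was listed at 0.082 TPM in control cells and at 0.0001 TPM, the value that stands in place of 0, in GDF1 cells. PDCD1LG2 and HHLA2 were at 0.0001 TPM in both libraries.

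CD274 (GRCh37 chromosome 9, plus strand, 5450503 to 5470566; ENSG00000120217) and PDCD1LG2 (5510531 to 5571282; ENSG00000197646) are neighbours 40.0 kb apart. The gene on the other side of CD274, PLGRKT, was listed at 8.73 and 6.35 TPM. HHLA2 (ENSG00000114455) lies on the plus strand of chromosome 3 from 108015376 to 108097132, on the far side of IFT57 from CD47. VTCN1 (ENSG00000134258) lies on the minus strand of chromosome 1 from 117686209 to 117753582, next to TRIM45 (2.83 and 4.32 TPM) and MAN1A2 (2.05 and 1.67 TPM).

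The order of the ligands by level differed between the libraries. In control cells it ran from CD276 through PVR, CEACAM1, CD47 and TNFRSF14 to LGALS9, and in GDF1 cells from PVR through CD276, CD47, TNFRSF14 and CEACAM1 to LGALS9. CEACAM1 thus went from rank 3 to rank 5 with almost the same TPM, as CD47 and TNFRSF14 passed it. No replicate spread was available to judge which neighbours in these orders differ. By level relative to all expressed genes, CD276 lay above 65.1% of them in control cells and 66.1% in GDF1 cells, and CEACAM1 above 43.0% and 48.5%.

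**Figure D4:**
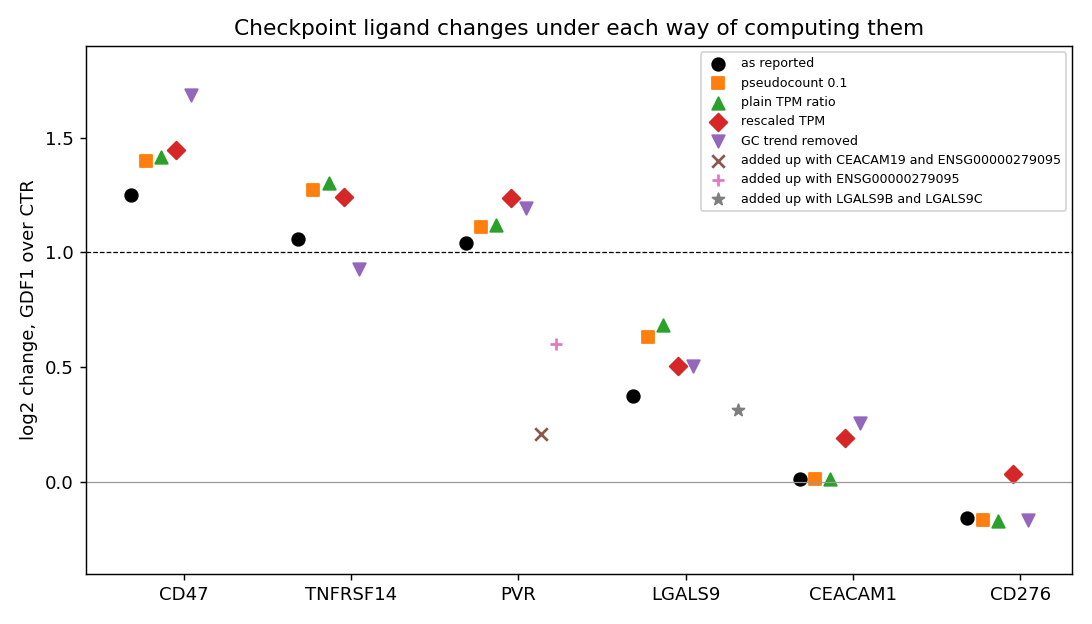
Log2 change of the 6 expressed checkpoint ligands under each way of computing it: as reported (pseudocount of 1 TPM), with a pseudocount of 0.1, as the plain TPM ratio, with rescaled TPM, with the GC trend removed, and with overlapping genes or near-copies added up. The dashed line marks 2-fold. CD47 stays past it under each, CD276 lies above 0 only with rescaled TPM (0.036), TNFRSF14 drops to 0.93 with the GC trend removed, and PVR drops to 0.60 and 0.21 when overlapping genes are added.

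The genes known to control PD-L1 were examined next. Of 18 listed regulators, 17 reached 1 TPM, of which 3 fell past 2-fold and none rose, with a median log2 change of -0.40. Over all expressed genes 9.61% fell and 4.82% rose, with a median of -0.20. With rescaled TPM the medians were -0.23 for the regulators and -0.013 for all expressed genes. CMTM6, which protects PD-L1 from lysosomal breakdown, fell from 8.05 to 2.39 TPM (log2 change -1.42), and SPOP, an adaptor of the ubiquitin ligase that degrades PD-L1, fell from 16.3 to 5.93 TPM (-1.32). The CMTM6 transcript has a GC content of 38.4%, the same as that of CD47, where the fitted GC trend was -0.43. The trend was not removed for this list or the lists that follow. CMTM6 shares 324 exon bases with CMTM7 on the opposite strand, which was listed at 15.1 and 14.6 TPM. STUB1, a ubiquitin ligase and the most abundant of the list, was listed at 181.3 and 193.0 TPM. IRF1, the direct activator of the CD274 promoter, was listed at 4.59 and 5.13 TPM, and JAK2, a kinase that starts the interferon gamma signal, was under 0.1 TPM in both libraries.

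Of 18 other inhibitory ligands, 12 reached 1 TPM, of which 1 rose and 2 fell past 2-fold, with a median log2 change of -0.059. In control cells 11 of the 12 reached 1 TPM, and in GDF1 cells 12. The shares over all expressed genes were 4.82% and 9.61%, and their median was -0.20. LGALS1, encoding galectin-1, rose from 80.6 to 257.2 TPM (log2 change 1.66), while LGALS3, encoding galectin-3, a LAG-3 ligand, fell from 283.1 to 123.2 TPM (-1.19). BTN2A2, a butyrophilin related to the B7 family, fell from 6.19 to 1.73 TPM (-1.40). LGALS1, LGALS3 and NECTIN2 were each listed at a higher TPM than any of the 10 checkpoint ligands in both libraries. With rescaled TPM 1 gene of the list, BTN2A2, fell, and the median was 0.15, so its sign depended on the scaling.

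Of 12 costimulatory ligands, which activate lymphocytes, 7 reached 1 TPM and none passed 2-fold. Their median log2 change was -0.34, against -0.20 over all expressed genes, of which 4.82% rose and 9.61% fell. TNFSF14 reached 1 TPM in GDF1 cells only. Summed over the 12, the level was 478.2 TPM in control cells and 690.8 TPM in GDF1 cells. CD70, the ligand of CD27 and the most abundant, was listed at 256.6 and 491.9 TPM, a log2 change of 0.94. With rescaled TPM it was past 2-fold, the 1 gene of this list that was. CD80 and CD86, the B7 ligands of CD28 and CTLA4, were at 0.0001 TPM in both libraries. Of 16 receptors for the ligands, which are carried mainly by immune cells, 3 reached 1 TPM, with a median log2 change of 0.13. These were SIRPA, P4HB, a ubiquitous enzyme of the endoplasmic reticulum that galectin-9 can bind (1834 and 2003 TPM), and LAG3, which rose from 0.23 to 1.74 TPM (log2 change 1.15). LAG3 reached 1 TPM in GDF1 cells only, so it entered the count through the library where it was higher. Of the 3 receptors 1 rose and none fell, beside 4.82% and 9.61% over all expressed genes. PDCD1, CTLA4, TIGIT and BTLA were under 0.1 TPM in both libraries.

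Of 12 genes for soluble or enzymatic immune suppressors, 7 reached 1 TPM, of which 3 fell past 2-fold and none rose. VEGFA, the angiogenic factor, fell from 54.5 to 9.02 TPM (log2 change -2.47), and ARG1 and ARG2, the arginases, fell from 4.11 to 0.51 TPM (-1.76) and from 35.6 to 14.9 TPM (-1.20). ARG1 reached 1 TPM in control cells only, so it entered the count through the library where it was higher. With at least 5 TPM, 2 of 5 genes fell. ARG1 is also a hepatocyte enzyme, and 5 of the 11 liver markers fell in the same library. Their part in the ARG1 value was not tested. ARG2 shares 904 exon bases with VTI1B on the opposite strand, listed at 17.4 and 18.9 TPM. TGFB1, encoding the cytokine TGF-β1, was listed at 16.1 and 23.7 TPM (log2 change 0.53), within 2-fold. The 7 genes had a median log2 change of -0.43, against -0.20 over all expressed genes, of which 9.61% fell and 4.82% rose.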

How the data were processed

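Each cell line gave 1 poly(A)-selected RNA-seq library. Per the methods and the submitters' processing notes, the authors checked and filtered the reads (FastQC 0.11.2, Trimmomatic 0.36), aligned them to hg19 with HISAT2 2.1.0, quantified them with StringTie 1.3.3b and deposited TPM values per gene. The methods name a RefSeq annotation, whereas the files hold Ensembl identifiers. In place of 0 the files list 0.0001. TPM keeps no depth.

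Ligands, gene lists and motifs were chosen with earlier results of these data known. Genes that reached 1 TPM in one library or both were kept, changes were taken with a pseudocount of 1 TPM, and genes past 2-fold were counted, without tests. Named genes were all members, the genes past 2-fold and the most abundant gene of each list, overlapping genes and nearest protein-coding neighbours at 1 TPM or more. Others (among them NECTIN2, SIRPA, THBS1, TNFSF14, IRF1, JAK2, CD80, CD86, PDCD1, CTLA4, TIGIT, BTLA, TGFB1 and the markers under 1 TPM) were named after their values were seen. Positions, exons and transcripts came from GENCODE v44 on GRCh37, which held 55726 of 58174 identifiers, members included. GC trends were fitted by lowess (span 0.3). Counting was run on simulated data with planted changes well past 2-fold in genes at 5 TPM or more in control cells. That run does not cover values near 2-fold or lower genes. Python 3.11.15, numpy 2.4.6, pandas 2.3.3, statsmodels 0.14.6 and matplotlib 3.10.9 were used. Alternatives were other pseudocounts, minimums, scalings and backgrounds, GC trend removal, and overlapping genes or near-copies added up. A gene that the naming rule selects is counted in its list but not reported here by name.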

Additional observations from a re-analysis of the deposited data

How the results depend on the processing

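No paired analysis was possible because a single library stood for each kind of cell. Single ligands were judged by direction and by the 2-fold limit, counts by a change of over 1.5 times. CD47, LGALS9 and CEACAM1 kept their direction and their side of 2-fold under each alternative run. CD276 changed sign with rescaled TPM (0.036), by the construction of that scaling. The 3 ligands that rose became 2 with the GC trend removed. PVR was no longer past 2-fold when added up with both same-strand overlapping genes (0.21) or with ENSG00000279095 alone (0.60, chosen after the values were seen). The median of the ligands was 1.04 with at least 5 TPM, where LGALS9 drops out, and 0.19 over all 10 with no filter. Over all genes, 1167 rose and 2315 fell when the pseudocount was 0.1, 1229 and 2437 by the plain ratio, 471 rose with at least 5 TPM, 479 rose among protein-coding genes, and 886 fell with the GC trend removed. Of the other inhibitory ligands 1 fell with rescaled TPM and their median was 0.15. Of the costimulatory ligands 1, TNFSF14, rose with a pseudocount of 0.1 and 1, CD70, with rescaled TPM. Of the immune receptors 0 rose with at least 5 TPM, where LAG3 drops out. Of the soluble immune suppressors 2 fell with at least 5 TPM, where ARG1 drops out. The GC trend was not removed for the lists other than the ligands, so their counts were not checked against it. TPM carry no depth, which limits what can be said of the 4 ligands under 1 TPM.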
